A study of Mus musculus with 2 samples.

Results

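C1q-high tumour macrophages are the cells of these skin tumours rich in transcripts of complement component C1q and low in those of the phosphatase gene Acp5. They were selected on measured values, as cells with at least 500 genes, at most 15% mitochondrial UMIs, at least 10 UMIs of C1qa, C1qb and C1qc together per 10000 UMIs and at least 5 such UMIs, and under 2 UMIs of Acp5 per 10000. A UMI stands for 1 captured transcript. The rule found 456 of 29006 kept cells. Of these, 32 were among 7522 kept cells of the control library, Ctrl-D, which is 0.425% (exact Clopper-Pearson 95% interval 0.291 to 0.600). The other 424 were among 21484 kept cells of the Eed iKO-D library, which is 1.97% (1.79 to 2.17). All intervals here cover counting error only.

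Both libraries came from tumours of the dorsal skin of mice 5 months old, dissociated whole and sequenced from the 3' ends of transcripts in droplets. Ctrl-D mice were Eed flox/flox and received ethanol plus DMBA, a skin carcinogen given weekly for up to 20 weeks. Eed iKO-D mice were K14CrERT2;Eed flox/flox and received hydroxytamoxifen, on 4 days from postnatal day 50, plus DMBA. All mice thus carried floxed alleles of Eed, a core subunit of Polycomb repressive complex 2, and Cre genotype and tamoxifen differed together. The keratin 14 promoter drives Cre in keratinocytes, not in macrophages. The number and sex of animals in each library are not given in the labels, and how the tumours were pooled is not given either. With 1 library a group, the differences below cannot be set against a spread between replicates, and no test was run.

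C1q is the recognition molecule of the classical complement pathway. It is built from 3 chains, encoded by C1qa, C1qb and C1qc, and is made mainly by macrophages and other myeloid cells rather than by the liver, the source of most complement. Once bound to antibody or dying cells it engages the proteases C1r and C1s, and it also tags cells for engulfment. In skin, macrophages that live in the dermis take up dead cells, iron and lipid, and those newly derived from monocytes tend to present antigen through MHC class II.

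The C1q genes lie side by side on the minus strand of mouse chromosome 4 in build mm10, C1qb at chr4:136880129-136886187, C1qc at chr4:136889804-136893065 and C1qa at chr4:136895917-136898803. All of the 3 were detected together in 28 of the 32 Ctrl-D members and in 399 of the 424 Eed iKO-D members. The promoter stretches of C1qb and C1qc (RefSeq, GRCm38.p6, 250 bases before the gene's start and 50 after it, both on the minus strand) are shown because the rule turns on the joint level of these neighbours. They span chr4:136886151-136886450 for C1qb and chr4:136892865-136893164 for C1qc. Capitals mark GAGGAA, or its reverse complement, an ETS core of the kind the macrophage factor PU.1 binds, and TGCTGA, the core of sites of Maf factors. Both motifs were searched on both strands.
C1qb: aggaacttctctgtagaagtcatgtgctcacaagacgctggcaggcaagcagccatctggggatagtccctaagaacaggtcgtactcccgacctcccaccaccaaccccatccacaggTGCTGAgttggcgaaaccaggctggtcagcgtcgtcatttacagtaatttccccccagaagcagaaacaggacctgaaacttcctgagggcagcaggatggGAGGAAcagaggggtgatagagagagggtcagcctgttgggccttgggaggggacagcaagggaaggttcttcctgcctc
C1qc: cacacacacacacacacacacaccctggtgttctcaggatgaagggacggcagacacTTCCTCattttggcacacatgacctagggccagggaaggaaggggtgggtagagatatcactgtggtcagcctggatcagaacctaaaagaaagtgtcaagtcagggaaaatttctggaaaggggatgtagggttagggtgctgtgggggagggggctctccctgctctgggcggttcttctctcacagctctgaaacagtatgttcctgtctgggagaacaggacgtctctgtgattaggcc
Counted from the RefSeq starts, GAGGAA starts 30 bases before that of C1qb, and its reverse complement stands 193 bases before that of C1qc. The RefSeq starts differ from the ends of the gene spans given above. That of C1qc lies inside its span, so part of the C1qc stretch before the start lies inside it too. TGCTGA is found in the C1qb stretch 131 bases before the start. Of 32851 RefSeq promoter stretches of the same length, 28.3% hold GAGGAA and 19.5% hold TGCTGA, so such matches are common, and they describe the letters only. Among the factors that bind such sites, Spi1, which encodes PU.1, had 312 CPM (UMIs per 1000000 UMIs of the set) in Ctrl-D members and 327 CPM in Eed iKO-D members. Maf, a factor of resident macrophages, had 137 CPM in Ctrl-D against 594 CPM in Eed iKO-D.

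C1q itself was nearly level between the libraries, as the selection favours. Per cell, the 3 genes summed to 10.0 to 157 UMIs per 10000 with a median of 46.1 in Ctrl-D, and to 10.2 to 152 with a median of 42.6 in Eed iKO-D. C1qa had 2325 CPM in Ctrl-D and 2373 CPM in Eed iKO-D, C1qb 1808 and 1522, and C1qc 970 and 1122. In Ctrl-D members C1qa, C1qb and C1qc took 45.6%, 35.4% and 19.0% of C1q UMIs, and in Eed iKO-D 47.3%, 30.3% and 22.4%. Near the threshold, 4 Ctrl-D and 36 Eed iKO-D members had 10 to 15 C1q UMIs per 10000, while 3 and 42 cells with 5 to 10 fell outside. The Acp5 limit removed more, 14 cells in Ctrl-D against 297 in Eed iKO-D that met every other condition, of which 7 and 136 had Acp5 between 2 and 4 per 10000. The demand for at least 5 C1q UMIs, which bears on cells of low depth, left out 4 and 173 cells that met the other conditions. Just inside the C1q limit Csf1r, the receptor for the macrophage growth factor CSF1, had 230 CPM in Ctrl-D and 355 CPM in Eed iKO-D, and just outside it 506 and 142 CPM.

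The marker genes outside the rule, Csf1r, Mrc1 and Apoe, had higher CPM in Eed iKO-D members than in Ctrl-D members. Csf1r had 373 CPM in Ctrl-D members and 529 CPM in Eed iKO-D members, against 0.592 and 4.76 CPM in keratin-rich cells. Mrc1, the mannose receptor CD206, had 632 and 2044 CPM, and Apoe, the lipid carrier apolipoprotein E, 3181 and 10486 CPM. Mrc1 was thus 3.23-fold higher in Eed iKO-D (95% interval 2.78 to 3.79) and Apoe 3.30-fold (3.08 to 3.53). In Ctrl-D the median member had 0.820 Mrc1 UMIs per 10000, and keratin-rich cells had 2452 CPM of Apoe, so Apoe did not single out the members there. The 20 core macrophage genes were all measured, 5 of them were at least 2-fold higher in Eed iKO-D and 1, Cd74, was lower, near the shares over all measured genes, which are 19% and 10.3% (below). The F4/80 gene Adgre1 had 72.3 CPM in Ctrl-D and 280 CPM in Eed iKO-D, the efferocytosis receptor Mertk 19.0 and 192 CPM, and the lysozyme gene Lyz2 1157 and 4420 CPM. Tyrobp, which encodes the adaptor DAP12, ran the other way with 1537 and 821 CPM.

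The Ctrl-D members are few and mixed. They held 262778 UMIs with a median of 6220 per cell, against 6163227 and 13342 in Eed iKO-D, and 1 cell carried 12.8% of the Ctrl-D total. In Ctrl-D, 5 of the 32 had at least 3 UMIs of T cell genes and 6 had at least 3 of Cd207, the Langerhans cell gene langerin. In Eed iKO-D these were 3 and 9 of 424. The T cell markers summed to 986 CPM in Ctrl-D and 26.3 CPM in Eed iKO-D, with 5 of the 11 at 0 in Eed iKO-D, among them Cd3d, Cd3g and Nkg7. Fibroblast markers were the reverse, 22.8 CPM in Ctrl-D with 6 of 10 at 0, and 3515 CPM in Eed iKO-D with none at 0. The keratins Krt14 and Krt5 reached 20 UMIs per 10000 in 2 of 32 Ctrl-D and 163 of 424 Eed iKO-D members. Doublets were not removed, so a member can be a pair of cells. The libraries shared 49 cell barcodes, of which 0 belong to Ctrl-D members and 1 to an Eed iKO-D member.

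**Figure D1:**
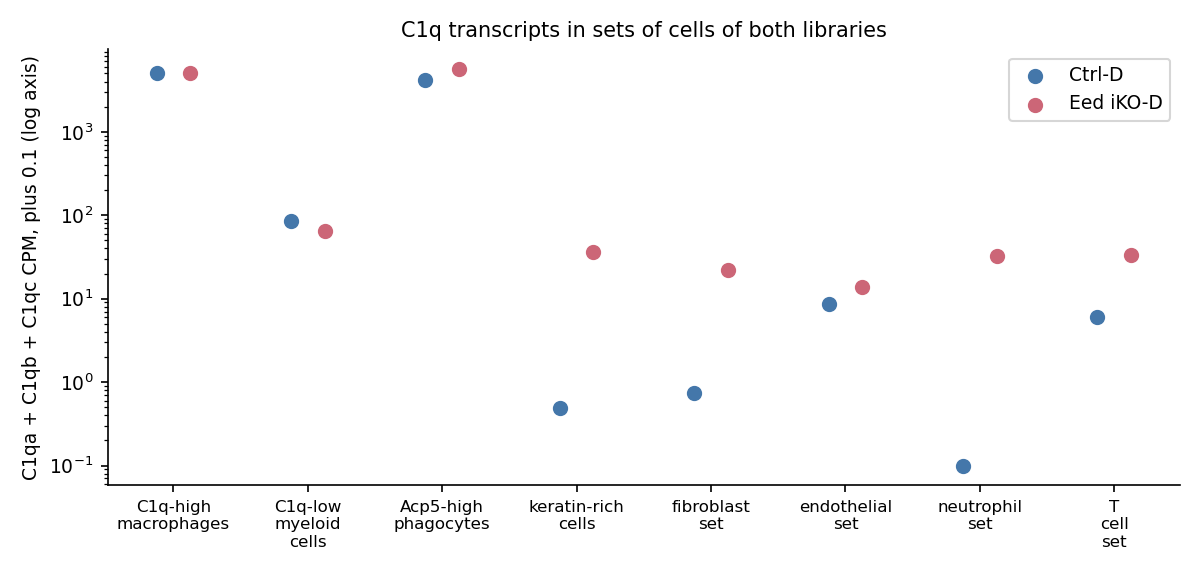
Summed CPM of C1qa, C1qb and C1qc (log axis, 0.1 added) in 8 sets of cells of Ctrl-D and Eed iKO-D, 1 point for each library. The C1q-high macrophages sit near 5103 CPM in Ctrl-D against 5017 in Eed iKO-D by selection, the Acp5-high phagocytes are as high, and keratin-rich cells stand at 0.384 and 36.6 CPM.

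C1q UMIs were also counted in cells not known to make C1q. In keratin-rich cells, those with at least 50 UMIs of Krt14 and Krt5 per 10000, the 3 genes summed to 36.6 CPM in Eed iKO-D and 0.384 CPM in Ctrl-D. The division among C1qa, C1qb and C1qc in the Eed iKO-D keratin-rich cells was 47.4%, 31.0% and 21.6%, close to that of the members and to the 47.0%, 31.4% and 21.6% of the fibroblast set. The plot of C1q transcripts by set shows this floor to be higher in Eed iKO-D. Members held 65.4% of all C1q UMIs of kept cells in Ctrl-D against 42.9% in Eed iKO-D. The Acp5-high phagocytes held 26.2% and 43.9%, so most C1q UMIs came from these 2 sets of cells.

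The members of Eed iKO-D differed broadly from those of Ctrl-D, with more transcripts of dermal resident macrophages and of chemokines, and fewer of antigen presentation. Of 4054 genes measured, 771 were at least 2-fold higher in Eed iKO-D (19%) and 416 at least 2-fold lower (10.3%), and the median log2 ratio was 0.10. A gene counted as measured when at least 10 UMIs were expected in the shallower library from the CPM of all members pooled. Since Eed iKO-D supplies nearly all pooled UMIs, this keeps genes high in Eed iKO-D and drops some that are high in Ctrl-D only, such as Cxcl9. With the plain mean of both libraries' CPM in its place, chosen after seeing the data, 577 genes were higher and 626 lower of 4142, so the balance of directions turns on this choice. Under that filter the resident, chemokine, MHC class II and MHC class I lists had 13, 13, 1 and 0 genes higher and 1, 4, 7 and 6 lower, close to the counts below.

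**Figure D2:**
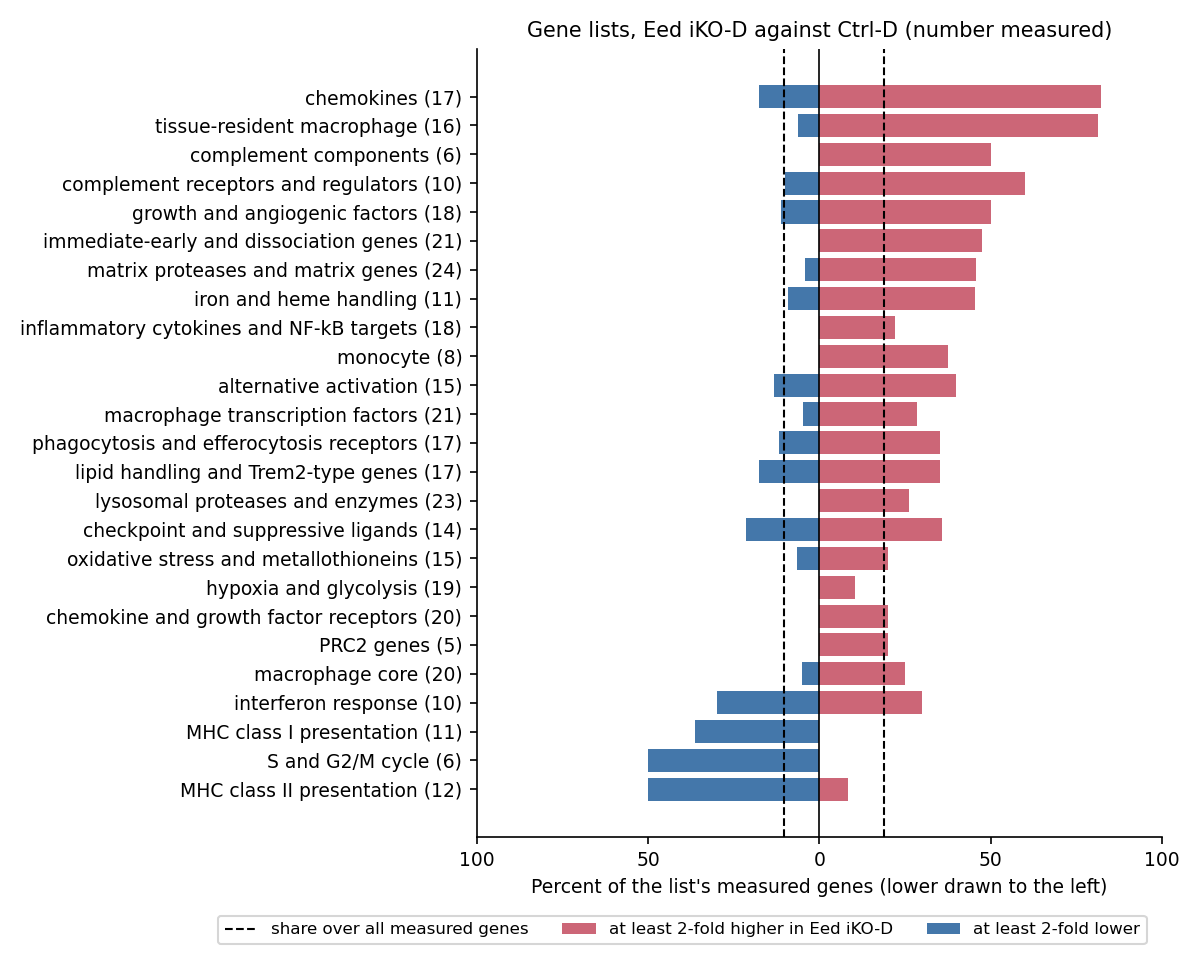
Percent of each gene list's measured genes at least 2-fold higher in Eed iKO-D (right) or lower (left) in C1q-high macrophages, with the number measured in brackets. Dashed lines mark the shares over all measured genes, 19% and 10.3%. Lists are ordered by their median log2 ratio, from chemokines and tissue-resident genes to MHC class II.

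The genes of resident dermal macrophages were higher in Eed iKO-D nearly throughout. Of the 18 on the list 16 were measured, 13 were at least 2-fold higher and 1 was lower, and the list's median log2 ratio was 2.01 against 0.10 over all measured genes. The same direction was found in C1q-low myeloid cells, with 6 of 8 measured higher, 0 lower and a median of 2.48. F13a1, which encodes a coagulation factor subunit kept by resident macrophages, had 228 CPM in Ctrl-D and 1251 CPM in Eed iKO-D, 5.48-fold apart (4.25 to 7.19). Pf4, the chemokine platelet factor 4, had 79.9 and 1139 CPM, 14.2-fold apart (9.31 to 23.03). Both genes came from a small part of the Ctrl-D members, with a UMI in 15.6% of them for each, against 70.8% and 77.4% of Eed iKO-D members.
Selenop, the selenium transporter selenoprotein P, had 499 CPM in Ctrl-D and 1751 CPM in Eed iKO-D. Folr2, the folate receptor beta, had 41.9 and 182 CPM. Lyve1, a hyaluronan receptor of macrophages along vessels, had 22.8 and 108 CPM. Cd163, the scavenger receptor for haemoglobin, had 60.9 and 245 CPM. In each of these 4 the Eed iKO-D value is the higher, and the Ctrl-D values rest on 6 to 131 UMIs. Ccl24, an eosinophil-attracting chemokine on the list, was the exception at 552 against 71.7 CPM, and 3 cells held 89.0% of its Ctrl-D UMIs.

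Antigen presentation genes were lower in Eed iKO-D. Of 15 MHC class II genes 12 were measured, 6 were at least 2-fold lower and 1 higher, and the list's median log2 ratio was -1.23. H2-Ab1, the beta chain of I-A, had 8311 CPM in Ctrl-D and 1648 CPM in Eed iKO-D, a ratio of 0.198 (0.189 to 0.208). H2-Aa, its alpha chain, had 6717 and 1748 CPM, and Cd74, the invariant chain, 15036 and 4444 CPM. Their master regulator Ciita had 110 and 38.0 CPM. H2-Eb1 stood apart from them, with 1168 CPM in Ctrl-D and 1266 CPM in Eed iKO-D. Thus H2-Aa had several times the CPM of H2-Eb1 in Ctrl-D and close to the same CPM in Eed iKO-D. The same held in C1q-low myeloid cells, where H2-Eb1 had 973 and 1184 CPM and H2-Aa 5264 and 1580 CPM, and in Acp5-high cells, with 646 and 1746 CPM of H2-Eb1 and 5339 and 2475 CPM of H2-Aa. The labels give no mouse strain, so whether the libraries carry the same MHC alleles, and whether these counts are affected by them, was not tested.
The libraries overlapped cell by cell but were shaped differently. The sum of H2-Aa, H2-Ab1, H2-Eb1 and Cd74 per cell ran from 2.85 to 868 UMIs per 10000 in Ctrl-D with a median of 345, and from 0 to 505 in Eed iKO-D with a median of 15.6. It was under 50 in 1 of 32 Ctrl-D members and in 250 of 424 Eed iKO-D members (59.0%, 54.1 to 63.7). Few cells lay near that value, 0 and 19 with 40 to 60. Without the 11 Ctrl-D members that held T cell or Cd207 UMIs, H2-Ab1 was 7460 CPM and Cd74 13065 CPM, so the high level was found without those cells too. The other 21 still had 241 CPM of Epcam, and whether further antigen-presenting cells of other kinds are among them was not tested.

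**Figure D3:**
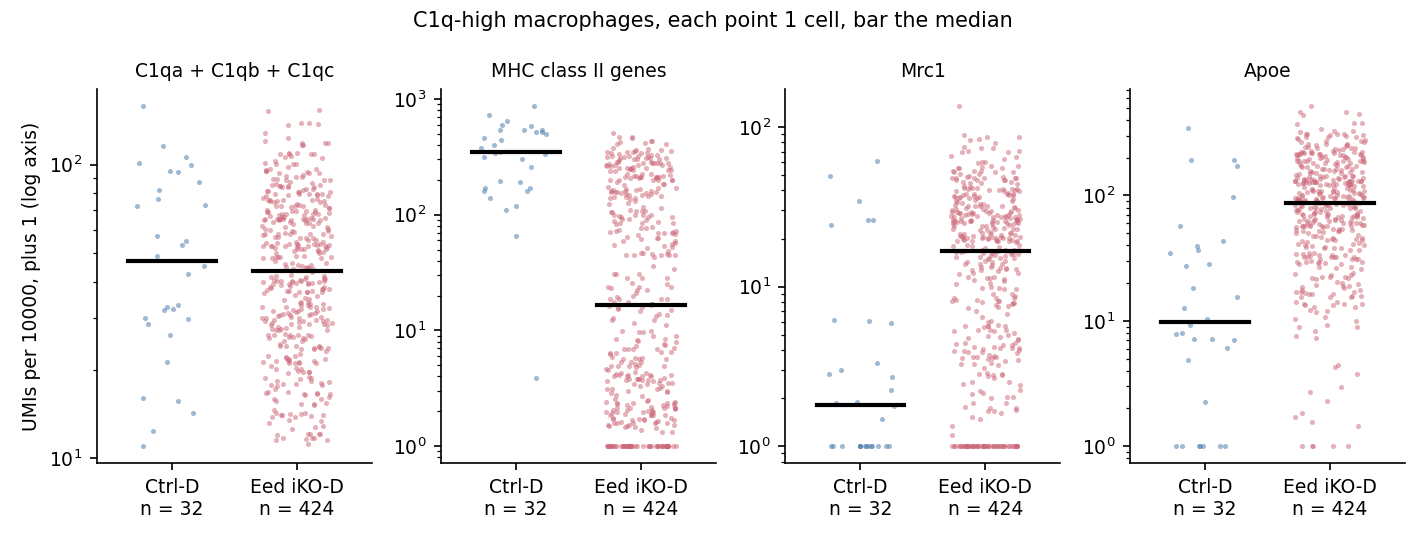
UMIs per 10000 in each C1q-high macrophage (1 added, log axis) for C1q, the MHC class II genes H2-Aa, H2-Ab1, H2-Eb1 and Cd74 summed, Mrc1 and Apoe, with the median as a bar, for 32 Ctrl-D and 424 Eed iKO-D cells. C1q medians are 46.1 and 42.6, whereas MHC class II medians are 345 and 15.6, Mrc1 medians 0.820 and 15.8 and Apoe medians 8.81 and 86.4.

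MHC class I genes were also lower. Of 11 measured of 15, 4 were at least 2-fold lower and 0 higher, and the median log2 ratio was -0.93. The 4 were Psmb8, Psmb9 and Psmb10, the subunits of the immunoproteasome, and H2-Q7. Psmb9 had 247 CPM in Ctrl-D and 45.6 CPM in Eed iKO-D, and Psmb8 460 and 125 CPM. Psmb9 was lower in Eed iKO-D in all the other sets of cells too, with 141 and 11.6 CPM in keratin-rich cells and 147 and 60.6 CPM in the T cell set. Its difference is thus not particular to the members. B2m, the shared light chain, had 2888 and 1755 CPM, less than 2-fold apart. Cxcl9, a T cell-attracting chemokine induced by interferon gamma, had 529 CPM in Ctrl-D and 6.49 CPM in Eed iKO-D, but 99.3% of its Ctrl-D UMIs came from 3 cells. Cxcl10, a relative with the same receptor, ran the other way at 38.1 and 172 CPM. Many of these genes are short, which matters below, and C1q-low myeloid cells had the same direction, with median log2 ratios of -1.12 for MHC class II and -0.90 for class I.

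Chemokine transcripts were mostly higher in Eed iKO-D members. Of 24 on the list 17 were measured, 14 were at least 2-fold higher and 3 lower, and the list's median log2 ratio was 2.65. C1q-low myeloid cells had 11 of 16 higher and 2 lower, with a median of 1.61. Ccl2, which draws monocytes through CCR2, had 103 CPM in Ctrl-D, from 27 UMIs in 9.38% of the cells, and 1537 CPM in Eed iKO-D, with a UMI in 73.6%. Its relatives Ccl7 and Ccl8 had 164 and 590 CPM in Ctrl-D against 1268 and 2000 CPM in Eed iKO-D. In Acp5-high cells Ccl2 had 0 UMIs in Ctrl-D and 578 CPM in Eed iKO-D. Ccl3 had 19.0 and 346 CPM in members, and Ccl4 79.9 and 1134 CPM.
The neutrophil attractants Cxcl1, Cxcl2 and Cxcl3 had 179, 2093 and 15.2 CPM in Ctrl-D and 1249, 5380 and 108 CPM in Eed iKO-D. These chemokines are not all specific to macrophages in Eed iKO-D. The fibroblast set there had 730 CPM of Ccl2, 674 CPM of Ccl7 and 1502 CPM of Cxcl1, while Ccl8 was 81.2 CPM and Pf4 6.85 CPM. The 3 chemokines at least 2-fold lower were Ccl24, Ccl5, with 240 and 63.8 CPM, and Cxcl16, with 868 and 353 CPM.

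Inflammatory cytokine genes moved less. Of 18 measured of 22, 4 were at least 2-fold higher, a share near the background of 19%, and 0 lower. These were Il1a with 19.0 and 232 CPM, Tnf with 137 and 378 CPM, and the feedback regulators Tnfaip3 and Socs3. Il1b, which encodes interleukin-1 beta, had 3585 CPM in Ctrl-D and 2463 CPM in Eed iKO-D. Il10, an anti-inflammatory cytokine, had 79.9 and 328 CPM. Immediate-early and dissociation genes, which respond to handling as well as to signals, were at least 2-fold higher for 10 of 21 and lower for 0, for example Egr1 with 255 and 906 CPM. Their part in the chemokine values was not tested.

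Beyond C1q, the members carried complement receptors and little of the protease genes C1ra and C1s1. The protease gene Cfb, for factor B, had 74.1 CPM in Eed iKO-D members and 68.5 CPM in Ctrl-D members, and 134 and 127 CPM in the fibroblast sets. In Eed iKO-D members C3ar1 and C5ar1, the receptors for the fragments C3a and C5a, had 288 and 383 CPM, against 98.9 and 68.5 CPM in Ctrl-D. Properdin, encoded by Cfp and the stabiliser of the alternative pathway, had 338 CPM in Eed iKO-D members, 171 CPM in Ctrl-D members and 2.85 CPM in Eed iKO-D fibroblasts.
C1r and C1s, the proteases that C1q activates, had their highest CPM in the fibroblast set instead. C1ra had 15.1 CPM in Eed iKO-D members and 131 CPM in the fibroblast set, and C1s1 23.2 and 263 CPM. Their inhibitor Serping1 had 60.03 and 983 CPM, C4b 83.6 and 269 CPM and C3 151 and 560 CPM. The parts of the C1 complex thus had their highest CPM in different sets of cells, C1q in phagocytes and C1ra and C1s1 in fibroblasts. In Ctrl-D, fibroblasts had 236 CPM of C1ra and 394 CPM of C1s1. By UMIs, C1s1 in Ctrl-D came as much from the larger keratin-rich set, with 1263 UMIs at 13.8 CPM, as from the fibroblast set, with 1232 UMIs. C1s1 and Serping1 were at 0 UMIs in Ctrl-D members, with an upper 95% limit of 14.0 CPM for each. Since fibroblast RNA is present in Eed iKO-D members, whether they transcribe C1ra, C1s1 and Serping1 was not tested.

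Genes for digesting and exporting cargo were called higher at a share near that of all genes. Of 23 measured lysosomal genes 6 were at least 2-fold higher, beside 19% of all measured genes, and 0 lower, and the list's median log2 ratio was 0.50, beside 7 of 24 and 0.57 in C1q-low myeloid cells. The cathepsin genes Ctsb and Ctsl had 1020 and 259 CPM in Ctrl-D and 2658 and 942 CPM in Eed iKO-D, and Grn, which encodes progranulin, 293 and 796 CPM. Ctss, a cathepsin that trims the invariant chain for MHC class II, was 1998 and 1310 CPM. Among lipid genes Abca1, a cholesterol exporter, had 179 and 834 CPM, while Trem2, the lipid-sensing receptor of lipid-laden macrophages, had 126 and 138 CPM.
Apoe has a second source in Ctrl-D, where keratin-rich cells with a UMI of it made up 83.9% after thinning, more than the 58.1% of members. In the haem and iron genes, Hmox1, the enzyme that breaks down haem, had 164 CPM in Ctrl-D and 570 CPM in Eed iKO-D. Slc40a1, the iron exporter ferroportin, had 0 UMIs in Ctrl-D and 42.2 CPM in Eed iKO-D, a ratio of 3.70 with Ctrl-D set to 3 UMIs. Fth1, the ferritin heavy chain, was 2.01-fold lower in Eed iKO-D, at 14610 and 7284 CPM.

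Receptors for engulfing dead cells split by gene. Mertk and its bridging ligand Gas6 were higher in Eed iKO-D, Gas6 with 45.7 CPM in Ctrl-D and 221 CPM in Eed iKO-D. Axl, the related receptor, was 133 and 71.1 CPM, and the Fc receptor Fcgr2b was 468 and 472 CPM. In C1q-low myeloid cells 15 of 19 measured genes of this list were at least 2-fold higher in Eed iKO-D and 1 was lower. In members 6 of 17 were higher and 2 lower, beside 19% and 10.3% of all measured genes. The lower were Mfge8, a bridging protein, with 392 and 46.7 CPM, and Havcr2, with 278 and 139 CPM. Mfge8 was 133 CPM in the 21 Ctrl-D members without T cell or Cd207 UMIs and 782 CPM in the other 11.

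Growth factor and matrix genes were counted higher more often than lower, and several of the matrix genes are fibroblast markers. Of 24 measured matrix genes 11 were at least 2-fold higher and 1 lower, and 6 and 1 with the filter on the plain mean. Fibroblast markers summed to 22.8 CPM in Ctrl-D and 3515 CPM in Eed iKO-D members, and their part in these counts was not tested. Sparc, a matrix glycoprotein, had 1 UMI in Ctrl-D members and 720 CPM in Eed iKO-D, and the fibroblast set there 8275 CPM. The collagen genes Col1a1 and Col3a1 moved with it, Col1a1 with 7.61 and 1139 CPM and Col3a1 with 0 UMIs and 755 CPM. The metalloproteinase genes Mmp12, Mmp13 and Mmp14, which macrophages do make, were each less than 2-fold apart, at 236, 247 and 339 CPM in Ctrl-D and 161, 169 and 291 CPM in Eed iKO-D.
Among 18 measured growth factors 9 were at least 2-fold higher and 2 lower. Gdf15, a stress-induced member of the TGF-beta family, had 1 UMI in Ctrl-D members and 245 CPM in Eed iKO-D. Igf1, a growth factor of resident macrophages, had 41.9 and 158 CPM, and was higher still in Eed iKO-D fibroblasts at 371.5 CPM. Vegfa, the main driver of vessel growth, was 213 and 164 CPM. Pgf, placental growth factor, was lower in Eed iKO-D at 274 and 48.2 CPM.

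Further genes with the largest differences came from the rule for named genes. Among the highest in Eed iKO-D was Cd38, an NAD-consuming ectoenzyme with 0 UMIs in Ctrl-D and 129 CPM in Eed iKO-D. The ratio was 11.3 with Ctrl-D set to 3 UMIs, and its lower 95% limit was 9.18. Arhgap31, a GTPase-activating protein, had 1 UMI in Ctrl-D and 270.5 CPM in Eed iKO-D, and Gas7 15.2 and 334 CPM. Ifih1, the RNA sensor MDA5, had 34.2 and 530 CPM. Cd38, Arhgap31, Gas7 and Ifih1 were higher in Eed iKO-D in C1q-low myeloid cells and Acp5-high cells too. In C1q-low myeloid cells Cd38 had 26.3 and 113 CPM and Ifih1 24.1 and 222 CPM. The other genes highest in Eed iKO-D were Sh3bp5, Cacna1d, Pde2a, Ptprm, Ccl3, Ccl2, Pf4 and Gdf15. Of the 12, Arhgap31, Cacna1d, Gas7 and Ptprm span long stretches of the genome, the class of genes raised in Eed iKO-D in all sets of cells (below).
The genes lowest in Eed iKO-D were led by Epcam, a surface protein of epithelium and Langerhans cells, with 559 CPM in Ctrl-D and 36.2 CPM in Eed iKO-D. In the 11 Ctrl-D members with T cell or Cd207 UMIs Epcam was 1039 CPM, and in the other 21 it was 241 CPM. Ctla2a was 0 UMIs in those 21 and 1716 CPM in the 11, so its lower call (685 and 96.9 CPM) rests on them. Spp1, which encodes osteopontin, had 1868 and 279 CPM, but 79.6% of its Ctrl-D UMIs came from 3 cells. S100a4 had 1404 and 268 CPM, Rgs2 913 and 164 CPM, and Napsa 263 and 38.5 CPM. S100a4 was lower in Eed iKO-D in all the other sets of cells too, for example the fibroblast set with 438 and 212 CPM. Without the 11 cells S100a4 was 741 CPM, Rgs2 418 CPM and Napsa 114 CPM in Ctrl-D. Slc7a2, an arginine transporter, was 301 and 44.3 CPM.

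Members that carried Xist alone or Y-linked transcripts alone were compared, since both kinds of transcript were found in each library. There were 14 and 8 such members in Ctrl-D and 267 and 72 in Eed iKO-D. H2-Ab1 was 10031 CPM in the Xist-only and 7059 CPM in the Y-only members of Ctrl-D, and 1321 and 2636 CPM in those of Eed iKO-D. Both Ctrl-D values are above both Eed iKO-D values. Mrc1 was 922 and 469 CPM in Ctrl-D and 1871 and 3025 CPM in Eed iKO-D, again without overlap. Ccl2 was 0 UMIs and 259 CPM against 1882 and 862 CPM, and Apoe 1254 and 3492 CPM against 12414 and 7108 CPM.
Spp1 was 3579 and 457 CPM in Ctrl-D and 393 and 28.3 CPM in Eed iKO-D, lower there in each class. Gdf15 and Ccl24 differed between the classes. Gdf15 was 363 CPM in the Xist-only and 21.9 CPM in the Y-only members of Eed iKO-D. Ccl24 was 1113 and 123 CPM in Ctrl-D and 34.7 and 240 CPM in Eed iKO-D, so its direction turned in Y-only members. Xist and Y-linked UMIs were found together in 2 of the 32 and 40 of the 424 members, so a class can hold cells called from UMIs of other cells, which was not tested.

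Few cell cycle genes passed the low-count filter between the libraries, which depends on the small Ctrl-D sum. Within Eed iKO-D, 24 were measured in members against Acp5-high cells. Of 6 measured of 25 between the libraries, 3 were at least 2-fold lower in Eed iKO-D and 0 higher. These were Hmgb2, Tubb4b and Cenpa. With the filter on the plain mean 6 were lower. Mki67, a marker of cycling cells, had 198 CPM in Ctrl-D and 117 CPM in Eed iKO-D. After each cell was thinned to 1500 UMIs, 9.68% of Ctrl-D and 10.4% of Eed iKO-D members had a UMI of Mki67. In keratin-rich cells the shares were 14.3% and 12.3%. The shares of C1q-low myeloid cells were below those of members in both libraries, with 95% intervals that overlap. Keratin-rich cells may transcribe Mki67 themselves, so their share sets no background for it, and the level of cycling in members was not tested.
Eed itself, the gene deleted in keratinocytes, had 10 UMIs or 38.1 CPM in Ctrl-D members (18.2 to 70.0) and 30.0 CPM in Eed iKO-D members (25.8 to 34.7), intervals that overlap. A 3' count does not show which alleles are intact. Its partners in PRC2 were also measured at low levels, Ezh2 with 30.4 and 30.5 CPM and Suz12 with 107 and 66.4 CPM. The accessory subunit Jarid2, a long gene, was 190 and 548 CPM.

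A difference that runs through the whole library lies under these comparisons. The members of Eed iKO-D had 9.40% of their UMIs on Gm42418, a locus that overlaps ribosomal RNA, against 0.760% in Ctrl-D, 8.14% on ribosomal protein genes against 17.8%, and 2.75% mitochondrial UMIs against 1.08%. Log2 ratios followed the span of the gene on the genome. The median was -0.70 for 453 genes of up to 5000 bases and -0.27 for 1001 genes of 5000 to 20000 bases. It was 0.17 for 1771 genes of 20000 to 100000 bases and 0.57 for 828 genes longer than that. C1q-low myeloid cells had -0.72 and 0.52 in the shortest and longest class, the fibroblast set -0.65 and 0.44, and the T cell set -0.78 and 0.42, so the slope is not particular to the macrophages. Psmb8, Psmb9 and H2-Aa, all under 20000 bases, lie on its lower side. The chemokine genes Ccl2, Ccl3, Ccl4, Ccl7, Ccl8 and Pf4 are shorter still and lie against it. F13a1 and Mrc1, both longer than 100000 bases, lie on the upper side of the slope, and Selenop, under 20000 bases, lies against it. Among genes under 20000 bases, 196 were at least 2-fold higher and 322 lower.

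**Figure D4:**
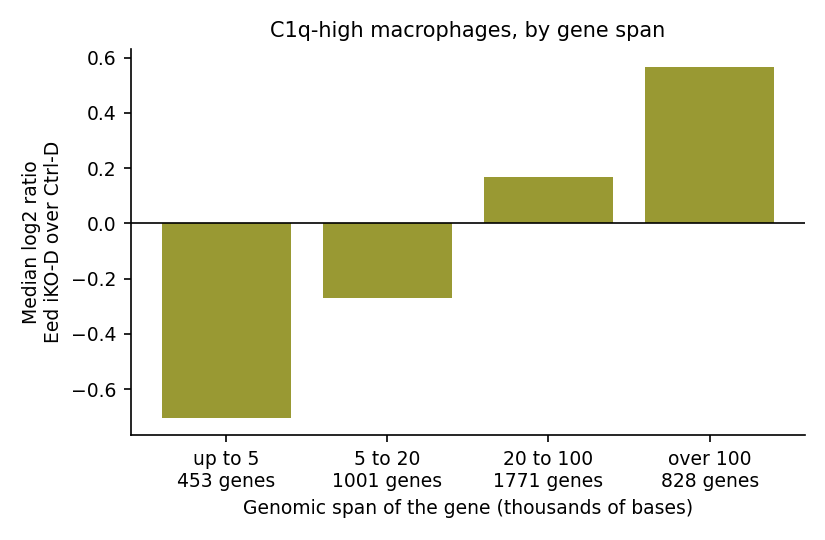
Median log2 ratio of Eed iKO-D over Ctrl-D in C1q-high macrophages for genes of 4 ranges of genomic span, with the number of measured genes. The bars go from -0.70 for genes of up to 5000 bases to 0.57 for genes over 100000 bases.

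Within Eed iKO-D the members were not uniform, and resident and antigen-presenting programmes lay at opposite ends. Members were cut into terciles, equal parts in order, by their MHC class II UMIs, 142, 141 and 141 cells. Of 10315 genes measured, 678 were at least 2-fold higher in the high than in the low tercile (6.57%) and 870 at least 2-fold lower (8.43%). The MHC class II genes chose the terciles and are description only. Of the 18 resident genes, all measured, 17 were at least 2-fold lower in the high tercile and 1 higher, and the list's median log2 ratio was -2.41 against -0.10 over all genes. Lyve1 went from 221 CPM in the low tercile over 96.4 to 5.47 CPM in the high tercile. F13a1 went from 2177 over 1274 to 320 CPM, Folr2 from 329 over 177 to 42.4 CPM and Hmox1 from 992 over 597 to 133 CPM. Ccl24 was the 1 resident gene higher in the high tercile, at 30.1 and 123 CPM.
Genes of recent monocyte origin ran the other way. Of 12 measured monocyte genes 6 were at least 2-fold higher in the high tercile and 0 lower. Ccr2, the receptor for CCL2, went from 16.7 over 88.0 to 259 CPM, and Itgax, which encodes CD11c, from 12.0 over 31.6 to 125 CPM. Il1b went from 551 over 1625 to 5034 CPM, and Il1r2, the decoy receptor for interleukin-1, from 8.33 to 271.5 CPM in the outer terciles. Retnla, an alternative activation gene, went from 61.1 to 736 CPM, with 65.2% of all its UMIs in 3 cells. Csf1r was 549, 493 and 539 CPM, and Eed 30.1, 29.9 and 30.1 CPM, so both were level across the terciles.
Markers of other cells moved with the terciles. All 9 blood endothelial markers were at least 2-fold higher in the high tercile, for example Pecam1 with 16.7 and 59.7 CPM and Cdh5 with 3.70 and 41.5 CPM, and so were 5 of 7 measured dendritic and Langerhans markers, such as Cd207 with 2.31 and 52.8 CPM. Neutrophil markers were higher for 5 of 7 and lower for 1, with S100a9 at 33.8 and 234 CPM, and pericyte markers lower for 4 of 5 and higher for 1. Keratinocyte markers were lower for 6 of 13, led by Krt10 with 474.5 and 6.83 CPM, while Krt14 was 1376 and 1263 CPM. Their part in the pattern was not tested.

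**Figure D5:**
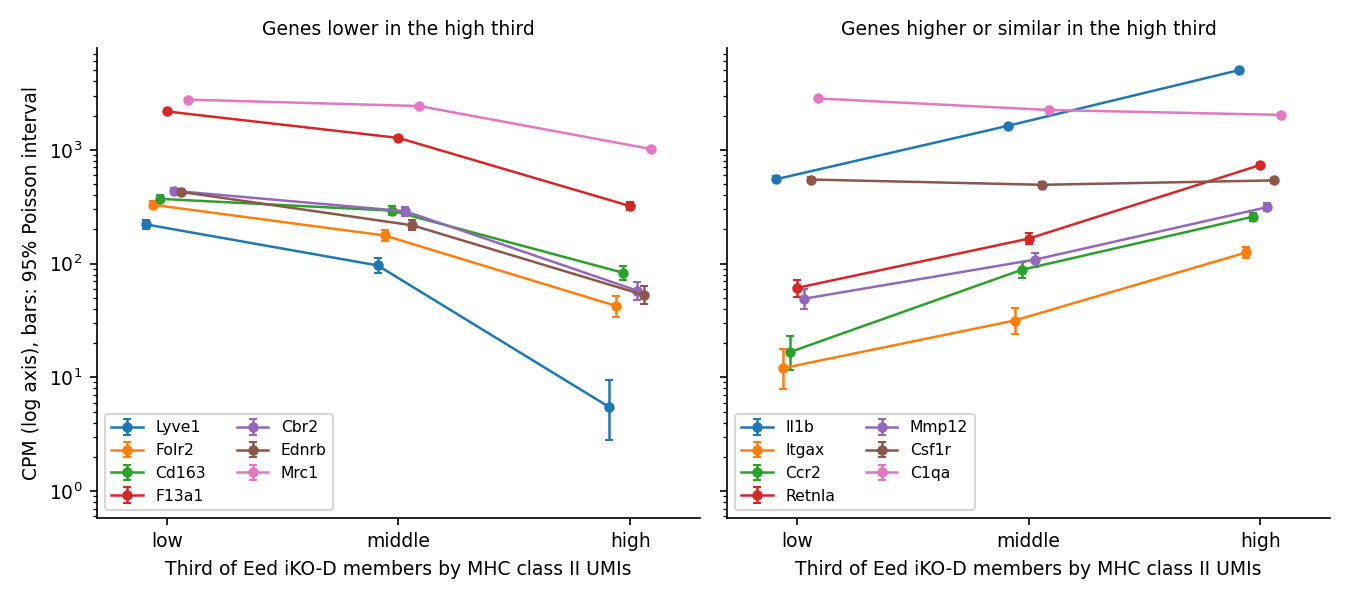
CPM (log axis) of 14 genes in the low, middle and high terciles of 424 Eed iKO-D C1q-high macrophages by MHC class II UMIs, with exact Poisson 95% intervals for counting error. Resident genes such as Lyve1 (221 to 5.47 CPM) go down to the right, Il1b (551 to 5034 CPM) and Ccr2 go up, and Csf1r stays near 500.

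Counted per cell, 188 of the 424 Eed iKO-D members (44.3%, 39.5 to 49.2) had at least 10 Mrc1 UMIs per 10000 with under 50 MHC class II UMIs per 10000, a combination found in 0 of 32 Ctrl-D members, which allows a share of up to 10.9%. Members with MHC class II of at least 50 and Mrc1 under 10 were 105 of 424 in Eed iKO-D (24.8%, 20.7 to 29.2) and 25 of 32 in Ctrl-D (78.1%, 60.03 to 90.7). The smaller Ctrl-D set had the same trend within it. Its low tercile of 11 cells had 947 CPM of Mrc1, 450 CPM of F13a1 and 3298 CPM of H2-Ab1, and its high tercile of 11 cells 14.6 CPM, 0 UMIs and 16298 CPM. Cd207 was 993 CPM in that high tercile and 0 UMIs in the low one. Even the low tercile of Ctrl-D had more H2-Ab1 than all Eed iKO-D members together, at 1648 CPM.

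The C1q level itself ran with the resident genes in Eed iKO-D. Members with 10 to 20 C1q UMIs per 10000 (68 cells), 20 to 50 (171) and over 50 (185) were compared, as description since C1q chose the members. Lyve1 was 16.2, 37.1 and 197 CPM in that order, Folr2 32.5, 85.7 and 311 CPM, and Selenop 545, 1204 and 2580 CPM. Ccl8 was 575, 940 and 3351 CPM, and Mertk 81.2, 141 and 269 CPM. Arg1, the arginase gene, went down from 445 over 212 to 51.2 CPM, Fn1 from 632 over 541 to 131 CPM and Mmp13 from 455 over 172 to 85.1 CPM. Krt14 also went down, from 2627 over 1911 to 1075 CPM, so cells with less C1q carried more keratinocyte RNA. Cd74 had no such order, at 4099, 5289 and 3787 CPM.

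The shares of members with a UMI were compared at equal depth. After thinning to 1500 UMIs, Mrc1 was found in 7 of 31 Ctrl-D members (22.6%, 9.59 to 41.1) and in 297 of 424 Eed iKO-D members (70.0%, 65.4 to 74.4), and unthinned in 56.2% and 87.5%. In keratin-rich cells, which should lack it, the thinned shares were 0% and 4.29%, at median depths of 16817 and 2568 UMIs before thinning. Cd74 was found in 96.8% and 58.3% of members and in 5.20% and 10.3% of keratin-rich cells, and unthinned in 100% and 78.3% of members. Spp1 was found in 45.2% and 12.97% of members against 0.0655% and 7.07% of keratin-rich cells. Il1b was found in 71.0% and 60.1% of members, with intervals of 52.0 to 85.8 and 55.3 to 64.8 that overlap, against 1.03% and 15.7% of keratin-rich cells. Arg1 in Eed iKO-D was found in 8.96% of members and 14.0% of keratin-rich cells. Single members reached 81.9 Arg1 UMIs per 10000, and 3 cells held 31.1% of its member UMIs. Keratin-rich cells may transcribe Arg1 themselves, so their share sets no background for it, and the source of the member UMIs was not tested.

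Compared with C1q-low myeloid cells of the same library, the members stood out by the monocyte-attracting chemokines and by genes of resident macrophages. The C1q-low set held 76 cells in Ctrl-D against 299 in Eed iKO-D with Tyrobp, Fcer1g and monocyte or macrophage genes, under 10 C1q UMIs per 10000 and little Acp5. Since expression defined both sets, the values are a description. Of 4065 genes measured in both libraries, 60 were at least 2-fold higher in members in both (1.48%) and 91 at least 2-fold lower in both (2.24%). Among the genes higher in members Ccl8 had the largest difference, with 590 CPM in members and 6.57 CPM in C1q-low cells of Ctrl-D, and 2000 and 20.6 CPM in Eed iKO-D. Ms4a7, a membrane gene of mature macrophages, had 259 and 8.76 CPM in Ctrl-D and 582 and 87.3 CPM in Eed iKO-D. Selenop had 499 and 30.7 CPM in Ctrl-D and 1751 and 226 CPM in Eed iKO-D.
Others among the highest in both were Ccl7, Ccl2, Cd81, Hmox1, Timp2, Frmd4b, Apoe, Mrc1 and F13a1. MHC class II did not separate the sets, with median log2 differences of 0.31 in Ctrl-D against 0.02 in Eed iKO-D. The genes lowest in members were led by Siglech, with 0 UMIs in Ctrl-D members against 519 CPM in C1q-low cells, and 1.30 against 247 CPM in Eed iKO-D. Siglech and Ccr9 belong to plasmacytoid dendritic cells, so the C1q-low set was not of monocytes only, and 24 of the 76 and 28 of the 299 cells had a UMI of Siglech. Without them 41 genes were lower in both. Ly6c2, the marker of inflammatory monocytes, had 3.81 and 364 CPM in Ctrl-D and 6.003 and 183 CPM in Eed iKO-D, and Plac8 76.1 and 1812 CPM in Ctrl-D and 73.3 and 801 CPM in Eed iKO-D. The rest were Aff3, Hdc, Slpi, Ifitm1, Samsn1, Acod1, Runx2 and Lsp1.

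Acp5-high phagocytes were the other set of cells with high C1q. In Eed iKO-D there were 337, of which 259 would have met the C1q part of the rule, and in Ctrl-D 17, of which 11 would have. Of 12565 genes measured in Eed iKO-D, 1159 were at least 2-fold higher in members (9.22%) and 322 at least 2-fold lower (2.56%). All 7 measured genes of the osteoclast type were at least 2-fold lower in members. Acp5 is a rule gene. Ctsk, the collagen-cutting cathepsin K, had 69.8 CPM in members and 775 CPM in Acp5-high cells, and Mmp9 43.6 and 485 CPM. Itgax followed them with 58.1 and 222 CPM.
Of the 18 resident genes 11 were at least 2-fold higher in members and 0 lower, with a median log2 difference of 1.40 against 0.04 over all genes. Cd163 had 245 CPM in members and 69.4 CPM in Acp5-high cells, and Lyve1 108 and 23.4 CPM. Retnla, which is not among the 18, had 332 and 18.8 CPM, with 65.2% of its member UMIs in 3 cells. C1qa, at 2373 and 2712 CPM, and the MHC class II list, with 0 genes past 2-fold in either direction, did not separate these sets. All 10 fibroblast markers were at least 2-fold higher in members, and their part in these differences was not tested.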

How the data were processed

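The authors deposited raw UMI counts, not normalised, of 32285 genes in 2 libraries as 10x matrices of barcodes called as cells. Cell Ranger, which aligns reads and counts UMIs, is version 2.1.0 per the labels' protocols but 7.1.0 per the file headers. The submitters' processing notes give 8.0 and build mm10. The Ctrl-D matrix totals 120500892 UMIs and that of Eed iKO-D 289511009.

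Cells with at least 500 genes and at most 15% mitochondrial UMIs were kept. No doublet caller was run. UMIs were summed over the cells of a set and scaled to CPM with Python 3.11, numpy 2.4.6 and scipy 1.17.1. Intervals at 95% are exact Poisson for CPM, Clopper-Pearson for shares and conditional binomial for ratios, and cover counting error only. A gene was measured at 10 expected UMIs in the smaller sum and called at 2-fold, after 0.5 UMI was added. Differences over summed UMIs have no replicate, since each group has 1 library. Named genes were the 12 highest and 12 lowest ratios after 5 CPM were added, among genes of at least 50 CPM and 20 UMIs in the higher library and no lower there than in the other kept cells. Against C1q-low cells they were the 12 highest and 12 lowest by the smaller ratio of both libraries, at 100 CPM or more. Genes given as examples of lists, and those of the terciles, were chosen after their values were seen. Members and lists were chosen with earlier results of these data known. Sets of other cells were cut by marker thresholds per 10000 UMIs. The calculation was tested on simulated data.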

Additional observations from a re-analysis of the deposited data

How the results depend on the processing

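The Eed iKO-D members numbered 225 when Acp5 had to be at 0 UMIs and 261 without cells of at least 20 Krt14 and Krt5 UMIs per 10000, against 424. The counts of genes at least 2-fold higher and lower in Eed iKO-D, 771 and 416, became 168 and 126 after thinning to 1500 UMIs, where fewer genes were measured, and 2446 and 8206 with no filter on low counts. They became 684 and 509 after centring on the median gene, and 976 and 302 with totals that leave out Gm42418 and mitochondrial genes, which makes 57.3% and 76.4% of calls higher ones in place of 65.0%. Alternatives added after seeing the data gave 196 higher among genes of under 20000 bases, 626 lower with the filter on the unweighted mean, and 276 lower without members holding T cell or Cd207 UMIs. Xist-only members gave 255 lower, and Y-only members 340 higher and 190 lower. Against C1q-low cells, 60 higher and 91 lower became 14 and 19 after thinning, and 41 lower without Siglech cells. Among 42 named genes in 18 settings 561 log2 ratios stayed within the counting interval of the reported value, 174 moved out of it and the direction of a called gene turned 5 times. Ctla2a was 3.294 on the log2 scale in Xist-only members and 4.82 without cells holding T cell or Cd207 UMIs. In Y-only members Ccl24 was 0.89, Mfge8 0.0732 and Slc7a2 0.44. The cause was not tested where settings did not remove genes or cells. The 32 Ctrl-D members limit every ratio. No paired analysis was possible because each group has 1 library. Leaving out a replicate was not possible for the same reason.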
